A study of Caenorhabditis elegans with 3 samples.

Results

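The data described are the H3K4me3 peaks of non-exposed F14' nematodes, labelled as against a control, and comprise every interval of the F14' peak table. Collapsing its 1025 rows to unique intervals gave 639 peaks, of 734 in the F14' and F11 tables together. H3K4me3 is trimethylation of lysine 4 on histone H3. Its places in the genome of Caenorhabditis elegans, a free-living soil nematode, were found by ChIP-seq, in which an antibody pulls down marked chromatin and the DNA is sequenced. Whole worms were used. The F14' worms were kept in K-medium on plates without drug and descended from worms that received sulfamethoxazole (SMX), a sulfonamide antibiotic, for 11 generations at 6 days per generation. The labels call F14' the first progeny without the drug and also number it generation 14, so the steps between are not clear from them. The F11 worms were those exposed to SMX in the same medium for the 11 generations, and the control worms had the medium without SMX. The sources used here do not give the control's generation. All were wild type, grown at 20 °C on Escherichia coli OP50, and each of the 3 groups had 1 library. No difference below therefore has a replicate check, no test between groups was possible, and intervals on shares cover counting error only.

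H3K4me3 is deposited by SET-domain methyltransferase complexes of the COMPASS type. In most animals studied it marks nucleosomes just downstream of active transcription starts. In C. elegans many starts annotated in gene tables are trans-splice sites that lie downstream of the true promoter, so a peak near an annotated start is a position relative to the annotation. The X chromosome of the worm is largely silent in the germline, while widely used genes are frequent in the central parts of the autosomes. Whole worms hold all tissues, and fewer cells with a mark cannot be told apart from less mark per cell.

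Each peak has a count of sequenced tags inside it, and tag density below means those tags divided by the peak's width, in tags per kb. The peaks held 1264155 tags over 1436 kb, with 280 to 44316 tags per peak. The sources used here do not state the library's total depth. Tags of the control library were not analysed here, and any part it had in a peak could enter only through the authors' call, fold and p. The fold is the caller's enrichment over its background, and it ranged over the peaks between 1.55 and 38.9 with a median of 2.3. A fold of at least 2 was reached by 501 peaks (78.4% of all) and a fold of at least 5 by 97 (15.2%).

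What the fold was taken over needs care, because the table is labelled as set against control. The background behind a peak can be computed back from its tags and p, as the Poisson mean at which those tags have that p. It had a median of 235 tags per kb over the 571 peaks with a score (-10 log10 p) under 3100, the usual ceiling, and the other 68 peaks were left out here. Tags were a median of 1.23 times this background, with quartiles of 1.2 and 1.35. For 36 peaks with at least 2000 tags, the background was set beside a density over 10 kb, made of the peak's own tags and, for the rest of the window, the median background of 235 tags per kb. At 35 of the 36 it lay within 25% of that density, and the median ratio was 0.994, the exception being the 5S rRNA gene cluster with 2.25. The background of these 36 peaks was thus close to a value that uses no control tags directly, although the 235 tags per kb in it come from the same calculation. A peak with that many tags stays under the ceiling only if its background is a sizeable part of its tags. The choice of these peaks therefore favours such closeness. The F11 peaks were deposited with a false discovery rate (FDR) and the F14' peaks without one. Whether control tags entered the call was not tested, and a peak is described below as dense in the F14' library, not as raised over the control.

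Most peaks were close to the lowest density that was listed, and a minority carried most tags. Density had a lowest value of 233 tags per kb, quartiles of 284 and 406, a median of 301 and a highest value of 7849. Peaks with under 300 tags per kb numbered 312, those with 300 to 500 numbered 200, those with 500 to 1000 numbered 50, and those with 1000 or more numbered 77. The last band is called dense below, and the band limits were chosen after the values were seen. The 77 dense peaks were 12.1% of all peaks, covered 19.1% of the peak length and held 65.8% of the tags in peaks. The 312 peaks of the lowest band covered 37.9% of the length and held 12.1% of the tags.

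The densest peak lay on chromosome III (930633 to 932247, build ce10 for all positions). It held 12676 tags, or 7849 per kb, and is assigned to fbxa-55, an F-box gene, from whose start its centre lies 4616 bp downstream, past the end of the gene. F-box proteins select targets for ubiquitin ligases. The second, on chromosome X (15806526 to 15811768; 40755 tags, 7773 per kb), was centred 5043 bp upstream of Y7A5A.7. The third, on chromosome I (932939 to 935301; 6852 tags per kb), was assigned to Y95B8A.2, which RefSeq now calls nas-30, a name of the astacin metalloprotease family. None of these 3 peaks was centred within 2 kb of the start of its gene.

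The next in density was centred 2203 bp upstream of lgc-26, a ligand-gated ion channel gene (chromosome V, 264521 to 267757; 6761 tags per kb). A wide peak on chromosome II (8286702 to 8293315) had the most tags of any, 44316, or 6700.3 per kb. It is assigned to F14F11.2, now nlp-55, whose prefix is that of neuropeptide-like genes, and it lay 5294 bp downstream of the start. Y49G5A.1 (6391 tags per kb) and elk-2 (6306) followed, with centres 3216 bp downstream and 2390 bp upstream of their starts. The last 3 of the 10 densest were classed as promoter peaks. They belonged to clec-9, a C-type lectin gene (6207 tags per kb, centred 1669 bp upstream), the pseudogene Y64H9A.1 (6061, 591 bp upstream) and F52G2.3 (5382, 1280 bp upstream). Chromosome X carried 3 of the 10.

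**Figure D1:**
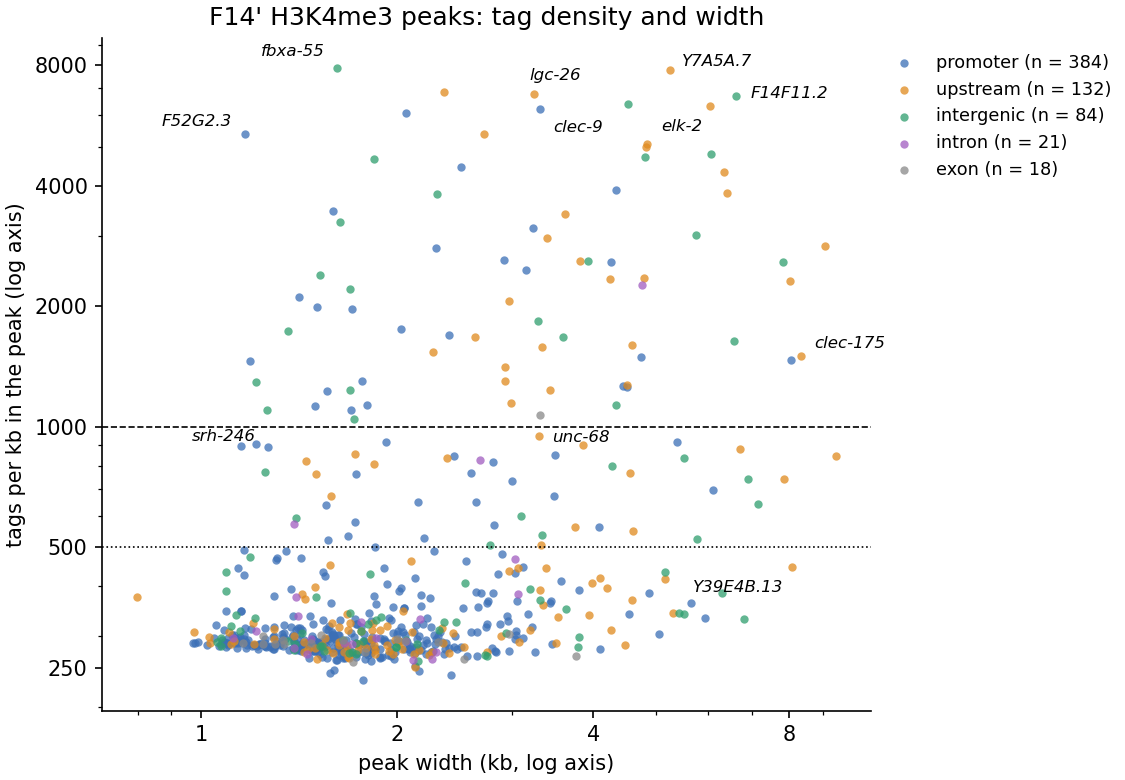
Tag density of each of the 639 F14' peaks (tags per kb, log axis) against its width (kb, log axis), with 1 point per peak and colours for the authors' class. The dotted and dashed lines mark 500 and 1000 tags per kb; most points form a band near 300, and the dense peaks reach 7849 and spread over widths of 1.17 to 9.06 kb.

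Peak width had a lowest value of 797 bp, at Y52E8A.3, a median of 1788 bp, quartiles of 1459 and 2526 bp, and a highest value of 9423 bp. Dense peaks were wider, with a median of 3237 bp against 1699 bp in the 512 peaks under 500 tags per kb. The widest peak lay on chromosome V (7916625 to 7926047) upstream of srsx-7, a chemoreceptor gene, and 21ur-13344, a piRNA gene, with 846 tags per kb. The peaks of the snoRNA gene Y119C1B.13 (9062 bp; 2832 tags per kb) and of clec-175, another C-type lectin gene (8343 bp; 1501), were next. Those of Y39E4B.13 (8060 bp; 445) and cpt-3, of the carnitine palmitoyltransferase family (8033 bp; 1470), completed the 5 widest. Width and density thus did not run together in these 5, and over all 639 peaks their Spearman correlation was 0.33. The points share 1 library and 1 peak caller, so this and the correlations that follow are descriptions.

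Among the dense peaks the deposited fold followed narrowness more closely than density. Over the 77, its Spearman correlation was -0.78 with width and 0.15 with tags per kb, whereas over the 512 peaks under 500 tags per kb these were -0.17 and 0.55. The 10 narrowest dense peaks (1166 to 1558 bp) had folds of 10.6 to 38.9, and the 10 widest (6055 to 9062 bp) had folds of 2.36 to 6.82. The median density ran the other way, at 1596 tags per kb in the narrowest and 2705 in the widest. F52G2.3, with the highest fold, was 1166 bp wide. The dynactin subunit gene dnc-6, second with 29.9, had a peak of 1844 bp and 4662 tags per kb. The elk-2 peak, 6050 bp wide, had more tags per kb than both and a fold of 3.16.

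Only F52G2.3 and fbxa-55 were among both the 10 densest peaks and the 10 with the highest fold. The others with the highest fold had lower density. Y106G6H.9 had 1293 tags per kb, Y14H12A.1 had 1461, and pap-1, a poly(A) polymerase gene, had 1731. The proton pump subunit gene vha-19 had 1752, T28H10.2 had 1990, and C26H9A.3 with T23B5.6 had 3455. The last of them, a group of 11 piRNA genes around 21ur-9229, had 2103 tags per kb.

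The authors' class of a peak follows from its centre. Promoter peaks were all centred within 2 kb of an assigned start, upstream peaks more than 2 kb before it, and intergenic peaks more than 2 kb after it and past the end of the gene. Intron and exon peaks were more than 2 kb inside the gene. Promoter peaks numbered 384 of 639 (60.1%, exact Clopper-Pearson 95% interval 56.2 to 63.9%) and upstream peaks 132 (20.7%, 17.6 to 24.0%). There were 84 intergenic (13.1%, 10.6 to 16%), 21 intron (3.29%, 2.05 to 4.98%) and 18 exon peaks (2.82%, 1.68 to 4.42%).

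The promoter share was lower the denser the peaks were. It was 68.6% of the 312 peaks under 300 tags per kb (63.1 to 73.7%), 60.5% of the 200 at 300 to 500 (53.4 to 67.3%), 46% of the 50 at 500 to 1000 (31.8 to 60.7%) and 33.8% of the 77 dense peaks (23.4 to 45.4%). Upstream and intergenic peaks together were 49 of the 77 dense ones. Exon peaks stayed low, with 17 of 18 under 500 tags per kb, and the exception was H03A11.2 on chromosome X (1068), followed by Y113G7C.1 on V (303) and nep-17 on II (303). Of the 21 intron peaks the densest was that of Y81B9A.2, also on X (2260 tags per kb), followed by Y18H1A.14, now gtnt-50 (828), and usp-39 (571). With dense peaks taken from 800, 1500 or 2000 tags per kb, their promoter share was 35.8%, 28.6% or 27.9%.

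**Figure D2:**
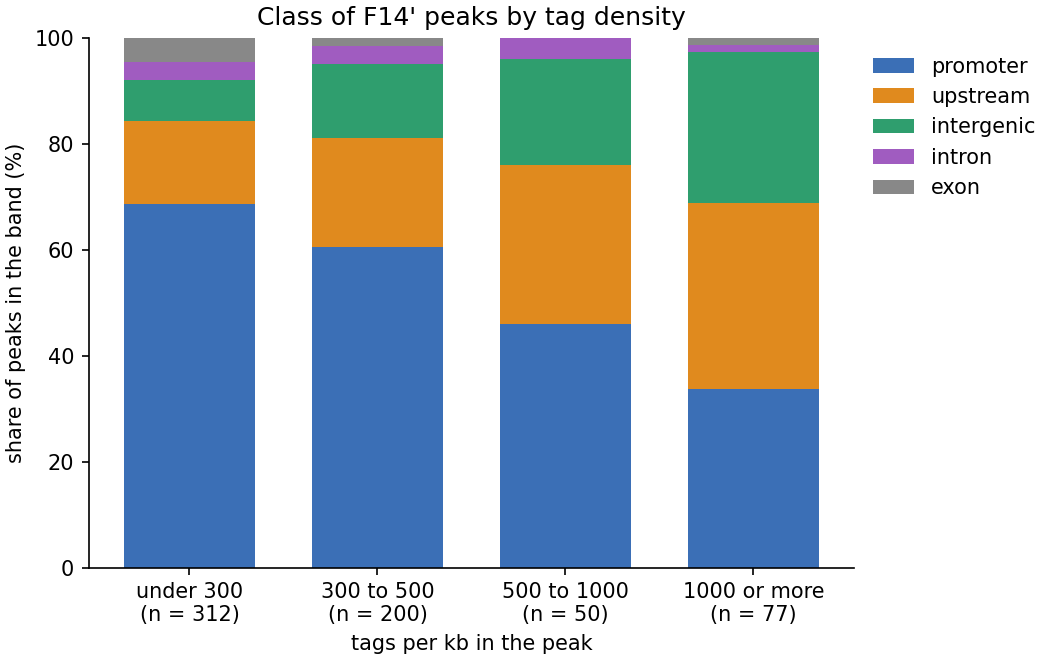
Share of F14' peaks (%) in each of the authors' 5 classes, by tag density in 4 bands with the number of peaks under each bar. Promoter peaks make up 68.6% of the lowest band and 33.8% of the highest, where upstream and intergenic peaks take most of the remainder.

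Within the promoter class, dense peaks were also wider, with a median of 2179 bp in the 26 dense ones and 1632 bp in the 335 under 500 tags per kb. In the upstream class the medians were 3820 bp in 27 dense peaks and 1845 bp in 90 under 500 tags per kb, and in the intergenic class 2795 bp in 22 and 1790 bp in 52. The greater width of dense peaks was therefore seen in each of the 3 large classes.

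Position relative to the start differed between dense and shallow peaks. Of the 77 dense peaks, 0 were centred in the 500 bp just downstream of the nearest assigned start. An approximate upper limit for that share, 3 divided by 77, is 3.9%. Of the 512 peaks under 500 tags per kb, 62 (12.1%) were centred there. In the 1000 bp downstream the numbers were 1 of 77 (1.30%) and 120 of 512 (23.4%). The exception was the peak of the piRNA gene 21ur-13604 (centre at 765 bp). Among promoter peaks, 20 of the 26 dense ones (76.9%) and 127 of 335 (37.9%) were centred upstream of the start. The median centre of these promoter peaks was at -780 bp in the dense ones and at 317 bp in the others.

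A centre lies farther from a start in a wide peak, so 2 measures that do not use it were added. The summit, the position of highest pileup, lay within 500 bp of an assigned start in 3 of 77 dense peaks (3.9%) and in 120 of 512 peaks under 500 tags per kb (23.4%). The interval itself held an assigned start in 23 of 77 (29.9%, 20.0 to 41.4%) and 192 of 512 (37.5%, 33.3 to 41.9%), and the confidence intervals of these shares overlap. In the promoter class alone the interval held a start in 17 of 26 dense peaks (65.4%) and in 192 of 335 (57.3%). Dense and shallow peaks thus differed more in where their summits lay than in the share of intervals holding a start. That share depends on width, since a wide interval holds a start more easily. Dense peaks had a median width of 3237 bp against 1699 bp, so like shares do not mean like positions.

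**Figure D3:**
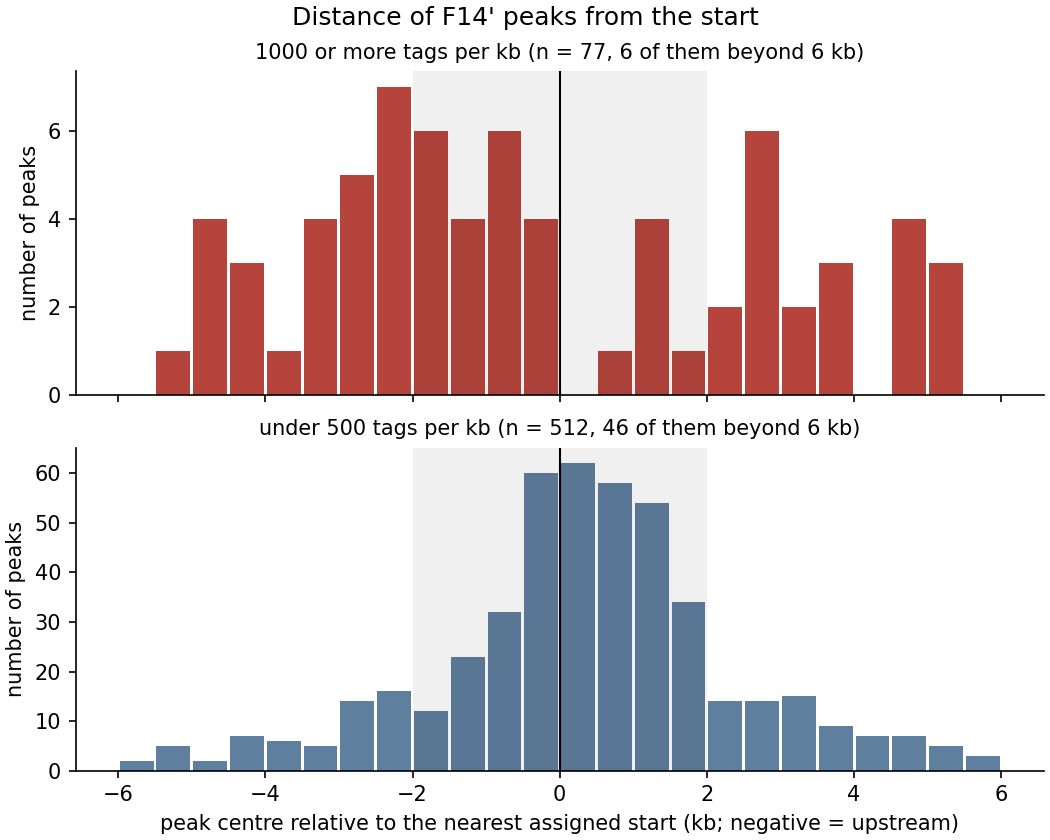
Number of F14' peaks by distance of the peak centre from the nearest assigned start (kb, 500-bp bins, negative values upstream), for the 77 peaks with 1000 or more tags per kb (top) and the 512 with under 500 (bottom). The grey area is the 2 kb on each side that defines the promoter class; the bin just downstream of the start holds 0 dense peaks and 62 shallow ones.

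Over all peaks, 128 (20.0%) were centred within 500 bp, 233 (36.5%) within 1 kb and 561 (87.8%) within 5 kb of an assigned start. Beyond 10 kb lay 17 peaks. Of these, 2 lay beyond 20 kb, both inside very long gene models, at Y105E8A.41 on chromosome II (138541 bp) and T21H3.9 on chromosome V (135665 bp). Another was a peak 19112 bp upstream of nob-1, a posterior Hox gene, which also had a promoter peak (chromosome III, 12083358 to 12084680; centre at 143 bp, 288 tags per kb). A peak assigned to unc-68, the ryanodine receptor gene, lay 17436 bp upstream of it with 949 tags per kb. For such peaks the assigned gene is only the one the annotation gives.

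Some shallow promoter peaks belonged to genes that most cells use. The ubiquitin gene ubq-1 had 334 tags per kb (centre at 597 bp), the mitochondrial ADP/ATP carrier gene ant-1.1 had 322 (117 bp) and the Hsp70 chaperone gene hsp-1 had 299.5 (299 bp). The unfolded protein response factor gene xbp-1 had 319 (310 bp). These densities are within the quartiles of all peaks, and the folds of these 4 peaks were 1.89 to 2.70. ant-1.1 and nob-1 were named after their values were seen.

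Chromosome X had fewer peaks per Mb than the autosomes, and the gap lay in the shallow peaks. X held 57 peaks, or 3.27 per Mb, against 582, or 7.08 per Mb, on the autosomes. Peaks with 500 or more tags per kb numbered 24 on X (1.38 per Mb) and 103 on the autosomes (1.25 per Mb). Peaks under 500 tags per kb numbered 33 on X (1.89 per Mb) and 479 on the autosomes (5.83 per Mb). Dense peaks alone showed 0.745 per Mb on X and 0.779 per Mb on the autosomes. Of the peaks on each, 42.1% on X and 17.7% on the autosomes had 500 or more tags per kb, and the median density was 419 on X against 299 tags per kb on the autosomes. X carried 20.2% of all tags in peaks on 17.5% of the length seen. Its promoter share was 36.8% (21 of 57), against 62.4% on the autosomes.

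**Figure D4:**
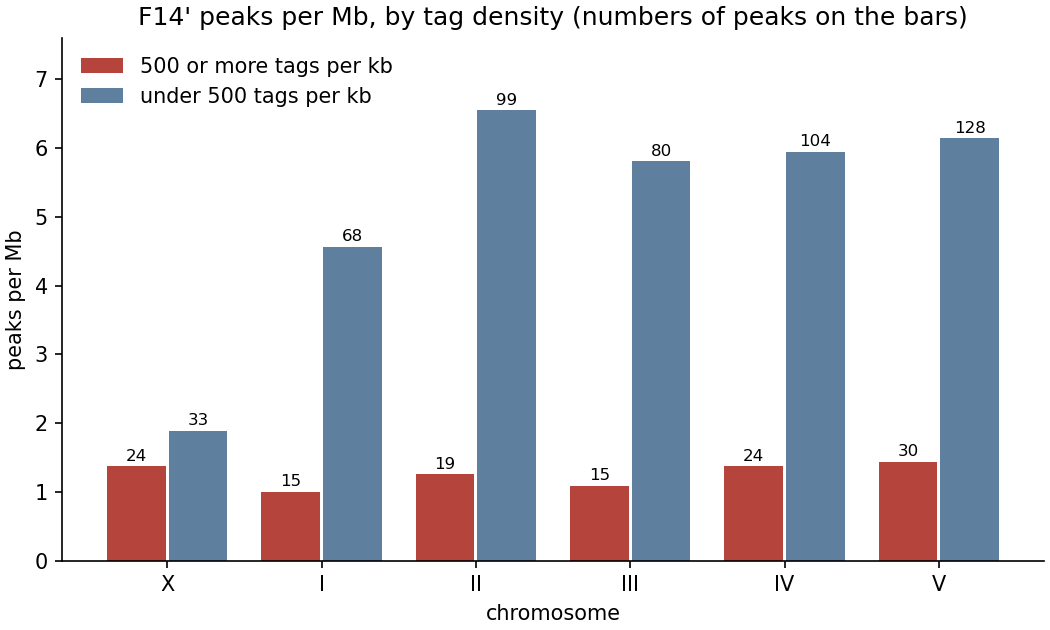
F14' peaks per Mb on each chromosome, for peaks with 500 or more tags per kb (red) and under 500 (blue), with the number of peaks on each bar; Mb are of the length spanned by listed peaks and genes. X has 1.38 per Mb of the first kind, within the range of the autosomes (1.01 to 1.44), and 1.89 of the second, below all autosomes (4.57 to 6.54).

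Dense peaks on X were those of Y7A5A.7, elk-2, Y64H9A.1, B0403.6 (5371 tags per kb, 3165 bp upstream), Y102F5A.1 (5084) and R57.2 (4337; now dbd-18), among 13 in all. On the autosomes the middle 33% to 67% of each chromosome held 19 of 64 dense peaks (29.7%) and 37 of 298 peaks under 300 tags per kb (12.4%). Shallow peaks were thus rare on X and in the autosome centres, and the dense ones were less unevenly placed on both counts.

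A single peak was often listed with several genes. A lone gene was named at 517 peaks, more than 1 at 122 and 5 or more at 23. The interval with the most, on chromosome V (17114960 to 17116754; 2037 tags, 1135 per kb), names 15 genes, of which 13 are 5S rRNA genes (such as rrn-4.1 and rrn-4.15). Another 2 intervals name the same family, at 17428171 to 17429465 (378 tags per kb) and 17421629 to 17423304 (341). The 5S genes are near-identical tandem copies, so reads cannot be divided among them. Apart from 12 of these rRNA genes, T21H3.9 alone was assigned 3 peaks, with 274 to 293 tags per kb. Assigned to 2 peaks were 59 genes, among them glr-5, a glutamate receptor gene, with peaks 2085 and 8980 bp upstream (808 and 416 tags per kb). At 72 promoter peaks the listed genes lay on both strands.

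Of the 23 peaks with 5 or more genes, 16 named piRNA genes. The piRNA genes, named 21ur, encode small RNAs that guide Piwi proteins in the germline, and most lie in clusters on chromosome IV. The one with the most held 11 piRNA genes around 21ur-9229 (15408857 to 15410268; 2103 tags per kb, fold 17.5). A set of 9 genes around 21ur-13102 had 471 tags per kb, and a set of 7 around 21ur-8150 had 493 tags per kb and a fold of 8.47. Of 15363 piRNA genes in the RefSeq table, 139 were assigned a peak (0.905%), and 38 were the nearest gene of a peak (0.247%). They lay in 51 peaks, with a median density of 304 tags per kb.

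By kind of nearest gene, 462 of the 639 peaks (72.3%) belonged to protein-coding genes, 83 (13%) to genes typed as ncRNA, 38 (5.95%) to piRNA genes and 27 (4.23%) to pseudogenes. As a share of the genes of each kind in the table, 2.23% of protein-coding genes were the nearest gene of a peak, 0.992% of ncRNA genes and 1.41% of pseudogenes, against 1.29% of all genes. Protein-coding genes were 73.4% of the nearest genes under 300 tags per kb and 72.7% in dense peaks. MicroRNA genes were nearest at 4 peaks, of which 2 were dense, namely mir-246 on chromosome IV (2204 tags per kb, centre 3714 bp downstream) and mir-249 on X (1965, 1101 bp upstream). Both were named after their values were seen.

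Of 19983 protein-coding genes, 510 were assigned a peak, a background of 2.55%, beside 837 of 46926 genes of all kinds (1.78%). Of the 510, 65.9% had a promoter peak and 11.8% a dense one, and the median density was 299 tags per kb, taking for each gene its peak of highest fold. Gene lists are set against these values without a test, since 1 library a side gives none.

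C-type lectins, secreted or membrane sugar-binding proteins often tied to immunity, had 14 of 239 members with a peak (5.86%), 13 of them in the promoter class. The highest folds were those of clec-9 (7.49), clec-135 (5.76; 521 tags per kb), clec-223 (5.49; 761) and clec-50 (4.57; 434). Chemoreceptors, G protein-coupled receptors of sensory neurons, had 48 of 1315 (3.65%), led by srh-246 (891 tags per kb), str-221 (1674), sre-47 (2468) and srz-32 (364). Only str-221 and sre-47 were dense among these 48, whose median was 288 tags per kb.

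F-box, MATH and BTB proteins, substrate adaptors of ubiquitin ligases, had 18 of 416 (4.33%), and 2 of them were dense, fbxa-55 and fbxa-75 (4999 tags per kb, 2099 bp upstream). The peaks of fbxa-190 (771) and fbxa-208 (670) had the other high folds, 12.7 and 5.64. A promoter peak was assigned to 10 of the 18 (55.6%), near the 65.9% of protein-coding genes with a peak.

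Ion channel genes had 10 of 205 members with a peak (4.88%). At least 1 dense peak was assigned to 3 of the 10 and a promoter peak to 2, beside shares of 11.8% and 65.9% over protein-coding genes with a peak. The median over each gene's peak of highest fold was 814 tags per kb, beside 299 over protein-coding genes, but over all 14 peaks of the list it was 430, beside 301 over the 485 peaks of protein-coding genes. The second peaks of unc-68 (288 tags per kb), lgc-35 (301) and glr-5 (416) and both peaks of lgc-30 (271 and 308) were all shallow. The highest folds were at unc-68 (9.89), lgc-26 (8.99), the bestrophin gene best-2 (6.57; 820 tags per kb, 2502 bp upstream) and lgc-35 (6.19; 2968, 7360 bp upstream), each centred more than 2 kb upstream of the start at that peak. ABC transporters had 2 of 51, haf-7 and pgp-14 (307 tags per kb). Of the 2 peaks of haf-7, that of highest fold had 2063 tags per kb and a centre at -16729 bp, nearer to nspa-10. The other had 1604 tags per kb.

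Transcription factor lists held shallow peaks only, so 0 of 8 homeobox and 0 of 6 nuclear hormone receptor genes had a dense one. Beside the 11.8% of protein-coding genes with a peak that had a dense one, 0 is unremarkable in lists this small. Homeobox factors had 8 of 83 members with a peak (9.64%; 6, or 7.23%, as nearest gene), and the peaks of highest fold of these 8 had 269 to 339 tags per kb. They included ceh-90 (fold 4.27), the even-skipped type gene vab-7 (2.64, in an intron), ceh-84 (2.27) and ceh-27 (2.14). Nuclear hormone receptors had 6 of 270 (2.22%), near the 2.55% of all protein-coding genes, with ZK1037.13 (now nhr-291; fold 3.42), nhr-141 (3.10), nhr-233 (2.19) and nhr-259 (1.98) highest.

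**Figure D5:**
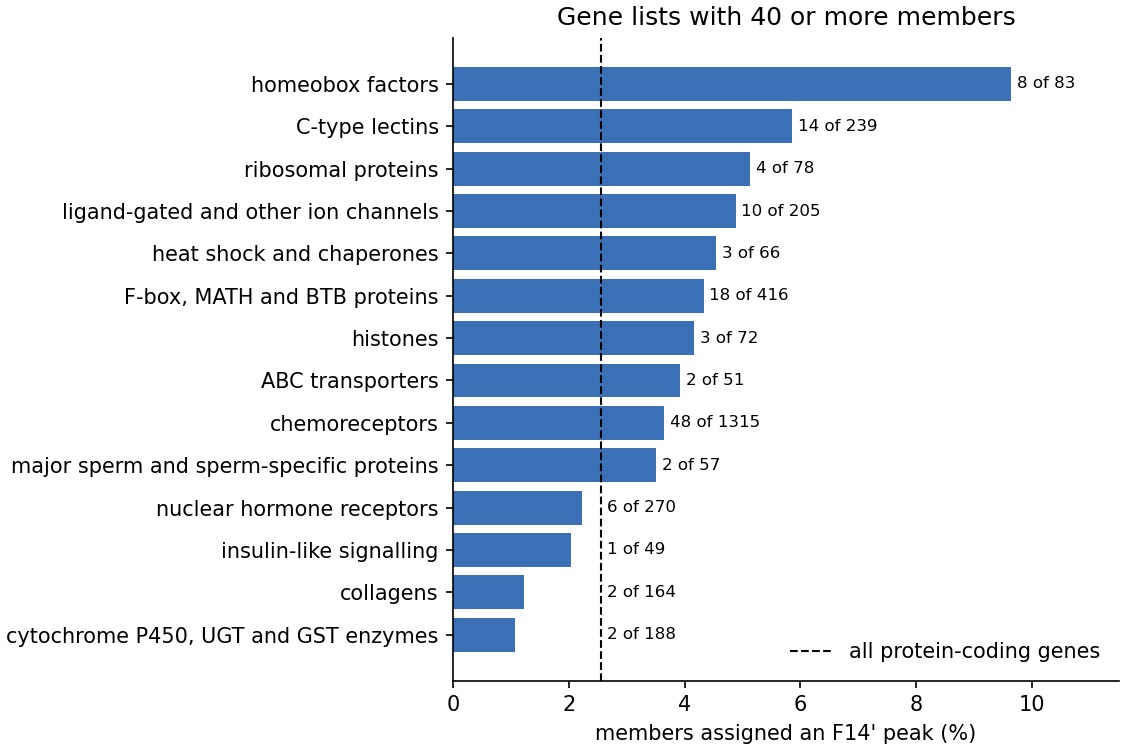
Share of members assigned an F14' peak (%) for the gene lists with 40 or more members, with the numbers beside the bars; the dashed line is the 2.55% of all protein-coding genes. Homeobox factors (8 of 83) lie highest and cytochrome P450, UGT and GST enzymes (2 of 188) lowest.

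Lists of basic cell functions had between 1 and 4 members with a peak. Each share was above the 2.55% of all protein-coding genes, though on these few members. Ribosomal proteins had 4 of 78 (5.13%), rps-19 (398 tags per kb), rpl-1 (now rpl-10a; 356), rpl-42 (279) and rpl-27 (298), but in 1 case only was the member the nearest gene. Heat shock proteins and chaperones had 3 of 66 (4.55%), namely xbp-1 (fold 2.70), dnj-19 (1.89) and hsp-1 (1.89), all shallow promoter peaks. Histones had 3 of 72 (4.17%), with his-64 at 295 tags per kb and his-35 and his-41 sharing a peak at 281. Proton pump subunits had 2 of 21 (9.52%), vha-19 (dense) and vha-1 (310). Of 23 housekeeping genes often used as references, such as actins, tubulins and elongation factors, ubq-1 alone had a peak (4.35%).

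Sperm-specific genes had 2 of 57 members with a peak, ssp-36 (426 tags per kb, fold 7.27) and msp-113, a major sperm protein gene (490, fold 5.23). Detoxification enzymes of the cytochrome P450, UGT and GST families had 2 of 188 (1.06%), gst-11 (591 tags per kb, 2085 bp downstream, intergenic) and ugt-24 (443). Collagens, the cuticle proteins, had 2 of 164 (1.22%), col-52 (314) and Y69H2.14, now col-42 (283). Insulin-like signalling had 1 of 49, the PI3-kinase gene age-1 (302 tags per kb).

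The machinery that writes and removes H3K4 methylation had 2 of 18 members with a peak, and neither was the nearest gene. They were set-16, an MLL-type methyltransferase gene (293 tags per kb), and ash-2, a complex subunit gene (306). Small RNA pathway genes had 1 of 34, the Argonaute gene alg-2 (302). Folate and one-carbon metabolism had 0 of 19. Sulfonamides block folate synthesis in bacteria, but at the 2.55% of all protein-coding genes a list this short would often hold 0. The markers of germline (such as glh-1), intestine (elt-2), body muscle (myo-3), neurons (rab-3) and hypodermis (dpy-7) had 0 of 8 members each. The peak list thus gave no tissue check of the sample, and tissue shares could not be read from it.

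Among the 10 densest F14' peaks and the 10 of highest fold, those at F52G2.3 and Y14H12A.1 also had an F11 peak listed. The share of all 639 F14' peaks that overlap any of the 95 F11 peaks is not given here. This overlap therefore cannot be called high or low. Both tables are labelled as set against the same control, so agreement between them is not independent. At F52G2.3 the density was 5382 tags per kb in F14' and 4672 in F11, with folds of 38.9 and 5.78. At Y14H12A.1 it was 1461 in F14' and 1538 in F11, with folds of 18.4 and 8.46. Dense peaks made up 77 of 639 in F14' (12.1%) and 8 of 95 in F11 (8.42%), and 26 of the 77 and 2 of the 8 were promoter peaks. The limit for dense peaks was chosen on F14' values. Tags were not normalized and library depths are not given here, so densities and these shares cannot be compared between the libraries free of depth.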

How the data were processed

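H3K4me3 ChIP-seq of whole worms gave 1 peak table for F14' and 1 for F11, and the control library had no table here. Peaks were called per sample. Alignment and calling used MACS 1.4.0rc2, Bowtie2 2.1.0 and build ce10, per the submitters' processing notes. Per the file headers, the authors deposited a count of tags in each peak, not normalized, a fold (a ratio over the caller's background), a score equal to -10 log10 p, and a summit. The F11 table's deposited FDR in percent was not used, and the F14' table held no FDR. Rows were collapsed to unique intervals, all rows of which had 1 class. Recomputed distances between peak centre and start differed from those deposited by at most 0.5 bp. For several assigned genes the nearest start was used.

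RefSeq identifiers (913 of 923) were matched to the RefSeq gene table of assembly WBcel235, used only for names, kinds of gene and list members. No coordinate of it is printed. Lengths of chromosomes are the highest coordinates in the tables.

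The peaks and gene lists were chosen with earlier results of these data known. Named genes are those of the 10 densest peaks, the 10 with the highest fold, the 5 widest, the 3 densest of each class, those with 3 or more peaks, and up to 4 of each list by fold; others named in the text were chosen after their values were seen. Intervals on shares are exact Clopper-Pearson 95% intervals, except the limit for 0 of 77, which is 3 divided by 77. No p-value was computed. Recovery of the background from tags and p was tested on simulated data. The alternatives were a score of at least 100, a fold of at least 2, merging within 1 kb, uncollapsed rows, covered length, summed tags over summed length, other distances and nearest genes only. The tools were pandas 2.3.3 and scipy 1.17.1 for the values, matplotlib 3.10.9 for the plots, and numpy 2.4.6 under Python 3.11.15.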

Additional observations from a re-analysis of the deposited data

How the results depend on the processing

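A fold of at least 2 (501 peaks) and merging within 1 kb (628 peaks) left every result recomputed under them close to its reported value, taken as within 1.5 times for counts, 10% for medians and the exact interval for shares. A score of at least 100 moved all 7 results recomputed under it. It left 239 peaks with a median density of 523 tags per kb and a median width of 2543 bp, 49.8% in promoters, 25.9% within 1 kb of a start, 15.1% on X and 328 genes, by construction the peaks with the smallest p. Uncollapsed rows gave 1025 entries and a promoter share of 69.3%. Covered length in place of number gave a promoter share of 51.9%, and summed tags over summed length gave 880.1 tags per kb. A distance of 2 kb raised the share near a start to 60.1%, and counting genes within 1 kb of the start gave 414 genes. Counting the nearest gene only gave 607. The other limits for dense peaks and the median over all peaks of the ion channel list were chosen after seeing the data. No paired analysis was possible because each group has 1 library, and no library could be left out. Density is known only inside peaks, so regions without a peak and the control's own density were not analysed here.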

Other observations

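Neighbouring F14' peaks were usually far apart, with a median gap of 84565 bp over 633 gaps, but 65 gaps were under 10 kb and 11 under 1 kb. On chromosome IV the dense peaks of mir-246 (10942980 to 10944672) and Y69E1A.1 (10945151 to 10946670) lay beside each other, with 2204 and 2394 tags per kb. On chromosome V the dense peaks at nspa-10 (14755165 to 14758128; 2063 tags per kb) and haf-7 (14766135 to 14770718; 1604) lay farther apart, with a gap under 10 kb. Both nspa-10 and haf-7 were assigned 2 peaks. The genes of these neighbouring peaks were named after their values were seen. Among dense peaks, fold had a Spearman correlation of 0.85 with the ratio of a peak's density to that over 10 kb (its own tags, and the median background in the rest of the window), and 0.15 with density itself. The ratio uses no tags from outside the peak and depends on width by construction. The 0.85 therefore in part restates the correlation of -0.78 between fold and width. These values are over 77 peaks of 1 library and carry no test.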
